A study of Mus musculus with 18 samples.

Results

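Major urinary proteins are small secreted carriers of the lipocalin family, which bind pheromones and other small hydrophobic ligands in a barrel-shaped pocket. In male mice the liver makes them in large amounts under the control of growth hormone, glucocorticoid and thyroid hormone, and they are excreted in urine. Their genes sit side by side on chromosome 4 as a young cluster of near-identical copies. Here 8 of these genes were followed in fat: Mup1, Mup2, Mup3, Mup4, Mup5, Mup7, Mup20 and Mup21. They were chosen by symbol because Mup7 was in excess in inguinal fat, so the inguinal values below describe that excess and carry no test. Of the 8 symbols, 7 had a row, out of 52093 symbols in the files of merged gene rows.

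RNA was measured in 18 samples of adipose tissue from wild-type male mice of strain C57BL/6J (C57BL/6 in the strain field), aged 16 weeks and fed regular chow. The samples were made to catalogue the receptors of fat cells. Inguinal white fat (iWAT) and epididymal white fat (eWAT) were digested with collagenase and the floating mature adipocytes were taken, 6 samples each, whereas brown fat (BAT) was frozen as whole tissue, also 6 samples. Depot and preparation therefore cannot be told apart between BAT and the white depots. The number in a sample title was read as the mouse, which gave 8 mice, 4 of them with iWAT and BAT, 4 with eWAT and BAT, and 5 with iWAT and eWAT.

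Between 22929576 and 34512470 reads stood behind the values of a sample. The labels were borne out by markers: Adipoq, the adipokine of mature adipocytes, averaged 1854 ± 237 RPKM (reads per kilobase, scaled to the reads of the sample; SD, n = 6) in iWAT and 302 ± 47.7 in BAT, and Ucp1, the uncoupling protein of brown fat, averaged 2.82 ± 1.92 in iWAT and 1219 ± 190 in BAT. Because RNA was taken in bulk, fewer cells of a type and less RNA per cell cannot be told apart. In eWAT, mice 14 and 15 carried a summed level of 5 epididymis markers of 65.3 and 62.7 RPKM, against at most 3.61 in the other 4 samples.

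The letters of the genes decide what a short read can say about them. A stretch of 60 coding bases (positions 15 to 74 of the coding sequence, counted from its first base, within 1 exon) is given here 5′ to 3′ from the minus strand of build mm9, since it is where Mup7 and Mup2 differ most. Capitals mark bases that differ from Mup7.
Mup7, chr4:60083099-60083158: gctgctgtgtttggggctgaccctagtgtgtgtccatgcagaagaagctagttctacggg
Mup2, chr4:60152585-60152644: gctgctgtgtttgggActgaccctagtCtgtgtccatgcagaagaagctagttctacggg
Mup1, chr4:60514648-60514707: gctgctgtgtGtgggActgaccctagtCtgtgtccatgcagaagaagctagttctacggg
Mup10, chr4:60594887-60594946: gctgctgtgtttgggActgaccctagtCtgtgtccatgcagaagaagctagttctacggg
Mup11, chr4:60675096-60675155: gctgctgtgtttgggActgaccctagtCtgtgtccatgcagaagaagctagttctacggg
Mup3, chr4:61748180-61748239: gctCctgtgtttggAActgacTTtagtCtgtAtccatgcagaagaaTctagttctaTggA

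Within this window Mup2, Mup10 and Mup11 had the same letters, with 2 differences from Mup7, while Mup3 had 10. Over the whole coding sequence Mup2 was 98.7% and Mup1 98.9% identical to Mup7, whereas Mup3 was 82.4%, Mup21 83.7%, Mup4 88.2%, Mup5 89.7% and Mup20 90.1% identical. Among the 21 Mup genes with a model in the annotation, the 210 pairs ranged from 82.4 to 99.8% identity (median 96.6%). No pair lay between 94.8% (Mup3 and Mup21) and 98.3% (Mup7 and Mup13), so the median falls in a gap and is no typical pair.

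The share of each transcript that a read could place was counted in stretches of 50 bases. For Mup7, 38 of 878 stretches (4.33%) were found nowhere else in the cluster, and for Mup2 0 of 878 were. Mup1 had 5.24% such stretches, whereas Mup3 had 83.1%, Mup4 87.4%, Mup5 81.9%, Mup21 80.7% and Mup20 39.1%. Of the build's sequence over the cluster 7.32% was unsequenced, so further copies may lie in gaps. How reads with several possible places were handled, and the read length, are not given in the sources used here. A count for Mup7, Mup2 or Mup1 was therefore taken as reads placed at that copy, and the copy that made the RNA is uncertain. Counts for Mup3, Mup5 and Mup21 rest on mostly distinct letters.

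Mup7 RNA was abundant in iWAT adipocytes and varied greatly between mice. Its row (chr4:60079341-60083347, minus strand, 1033 bp in 7 exons) held 13504 reads in the iWAT of mouse 7, 7870 in mouse 11, 3731 in mouse 12, 4135 in mouse 13, 1518 in mouse 14 and 4340 in mouse 15. As RPKM the lowest was 46.3, the median 164 and the highest 570. The highest and the lowest mouse thus differed 12.3-fold, and the row ranked between 49 and 1019 among 53445 rows. Its coefficient of variation over the 6 samples was 83.2%, and of the 3918 rows with a mean of at least 10 RPKM in iWAT only 19 varied more, while the median row varied by 13.5%.

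In BAT and eWAT the same row was close to the limit of detection. In BAT it held 20 reads in mouse 6, 34 in mouse 7, 0 in mouse 8, 3 in mouse 11, 1 in mouse 12 and 2 in mouse 13. In eWAT it held 18, 6, 13, 18, 15 and 10 reads in mice 7, 8, 11, 13, 14 and 15. Every iWAT sample was above every sample of the other depots, and the BAT samples of mice 6 and 7 stood above the other 4 BAT samples. The row averaged 226 ± 188 RPKM in iWAT, while eWAT had 0.423 ± 0.160 and BAT 0.286 ± 0.391 (SD, n = 6 each), which makes the iWAT mean 534 times that of eWAT and 790 times that of BAT. For the 0 reads in mouse 8, a floor of 3 reads allowed an RPKM of up to 0.109 at the shallowest BAT depth. Floors and intervals here cover counting error only, since reads were not collapsed to molecules.

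**Figure D1:**
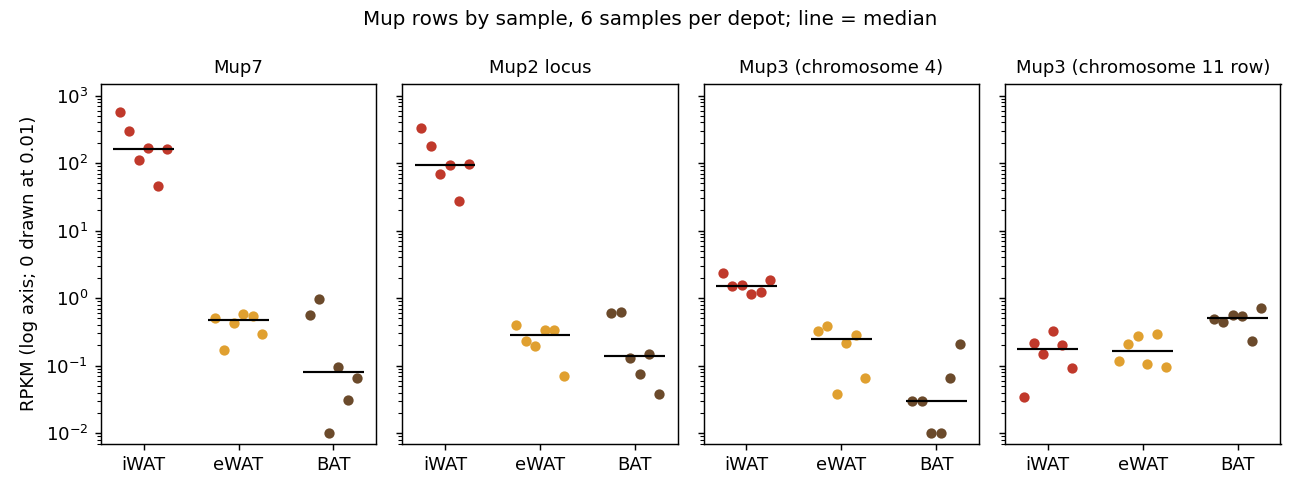
RPKM (log axis, 0 drawn at 0.01) of the Mup7 row, the row at the Mup2 locus, and the Mup3 rows of chromosomes 4 and 11 in each of the 18 samples, ordered by mouse, with a line at the median of 6. iWAT lay above the other depots for the first 3 rows, and BAT had the highest median (0.516) for the chromosome 11 row.

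Reads placed at Mup2, the other highly read member, moved with those placed at Mup7. Of the Mup2 stretches of 50 bases 0 of 878 were unique and 60.6% were shared with Mup7. Separate movement of 2 genes is therefore not shown. Its merged row (chr4:60148789-60167161, 1535 bp) held 6953, 4192, 1996, 2014, 800 and 2307 reads in the iWAT of mice 7, 11, 12, 13, 14 and 15, and 18, 20, 3, 2, 4 and 1 in the BAT of mice 6, 7, 8, 11, 12 and 13. Mouse 7 was again the highest and mouse 14 the lowest in iWAT. A row common to all files at this locus (named Mup19 there, 878 bp) averaged 133 ± 109 RPKM in iWAT, 0.264 ± 0.122 in eWAT and 0.269 ± 0.269 in BAT (SD, n = 6 each). Rows named Mup15, Mup17 and Mup19 lie over the same exons and hold the same reads, so their symbols are no evidence of those genes.

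The split of placed reads between the loci hardly changed while the level did. Since the handling of reads that fit several copies is not known, the split does not give the RNA made by each copy. Counting overlapping rows once, the 18 Mup loci of chromosome 4 took 22817 reads in the iWAT of mouse 7, 13468 in mouse 11, 6458 in mouse 12, 6807 in mouse 13, 2630 in mouse 14 and 7478 in mouse 15, or 82.8 to 995 RPM (scaled to the reads of the sample, as RPKM is, but not to length). Mup7 held 57.7 to 60.7% of them, Mup2 29.6 to 31.1%, Mup10 4.64 to 5.47% and Mup11 3.73 to 4.79%. The Mup7 share was 59.2% (95% Wilson interval 58.5 to 59.8) in mouse 7, the highest mouse, and 57.7% (55.8 to 59.6) in mouse 14, the lowest. The intervals of these 2 mice overlap although mouse 7 had far more reads. Small differences remained between other mice: the share was 60.7% (59.6 to 61.9) in mouse 13 and 57.8% (56.6 to 59.0) in mouse 12.

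**Figure D2:**
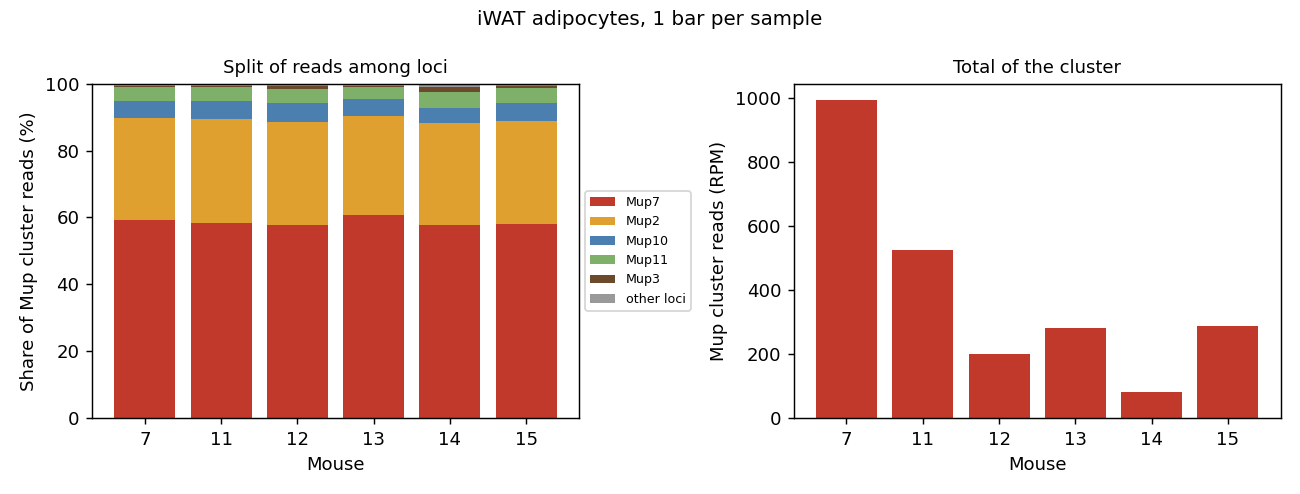
Left, share (%) of the Mup reads of chromosome 4 at each locus in the 6 iWAT samples, 1 bar per mouse; right, the total in RPM. Mup7 took 57.7 to 60.7% in every mouse while the total ran from 82.8 to 995 RPM.

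The split was less precise in the depots with few reads. Counting the Mup7 row and the row at the Mup2 locus alone, Mup7 took 66.7% of both in iWAT (66.3 to 67.1), 65.0% in eWAT (56.3 to 72.9) and 56.1% in BAT (46.6 to 65.1), from 80 and 43 reads in eWAT and 60 and 47 in BAT. The eWAT interval includes the iWAT share, and the BAT interval lies below it. These intervals pool the reads of 6 mice and leave out the spread between mice. In BAT, mice 6 and 7 held 20 and 34 of the 60 Mup7 reads, and 18 and 19 of the 47 at the Mup2 locus. No difference between depots is therefore read from the intervals.

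Mup3 did not follow the pattern of Mup7 between mice. Its chromosome 4 row (chr4:61744510-61748376, 969 bp) held 53, 38, 48, 27, 38 and 46 reads in the iWAT of mice 7, 11, 12, 13, 14 and 15, and 1, 1, 0, 0, 2 and 6 in the BAT of mice 6, 7, 8, 11, 12 and 13. Its iWAT samples lay between 1.15 and 2.39 RPKM and varied by 27.9%, with a 2.07-fold range against 12.3-fold for Mup7. Mup3 took 0.232% of the Mup reads in mouse 7 and 1.44% in mouse 14. In eWAT a Mup3 transcript of 916 bp held 1 to 12 reads, with a median RPKM of 0.252, below every iWAT sample. Mup3 was thus higher in iWAT too, at a far lower level than Mup7.

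A second row carries the symbol Mup3 on chromosome 11 (chr11:102975782-102977037, 1256 bp, 1 exon), which rests on a single cDNA and lies outside the Mup cluster. It ran the other way. It held 1, 7, 6, 10, 8 and 3 reads in the iWAT of mice 7, 11, 12, 13, 14 and 15, 5, 9, 10, 4, 10 and 4 in the eWAT of mice 7, 8, 11, 13, 14 and 15, and 21, 19, 19, 21, 9 and 27 in BAT. The lowest BAT sample lay within the range of the white depots, and the other 5 lay above it. In eWAT against BAT this row was lower by a log2 fold change of -1.66 (SE 0.38, adjusted p = 7.32e-04 by edgeR's quasi-likelihood test). In this fit 67.8% of the 5733 rows tested passed an adjusted p of 0.05, 32.6% of the rows lower and 35.3% higher in eWAT.

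The rows of the remaining members held few or no reads. Mup1, 98.9% identical to Mup7, had 1 read in all 6 iWAT samples together and 0 in BAT and eWAT. Of its stretches of 50 bases only 5.24% were unique, and 67.2% were shared with Mup7 and 74.6% with Mup2. Its RNA may therefore have been placed at those copies, and the count does not show absence. Mup5, with mostly unique stretches, also had 1 read in iWAT and 0 elsewhere. Mup21 had 0 reads in iWAT, 5 in BAT over 6 samples and 1 in eWAT. For Mup21 a floor of 3 reads allowed at most 0.168 RPKM in iWAT. The row named Mup20, the gene of the pheromone darcin, held 11, 6, 6, 0, 0 and 8 reads in the iWAT of mice 7, 11, 12, 13, 14 and 15, 0 in BAT and at most 3 in eWAT. That row (chr4:61610024-61621054) lies where the annotation lists the pseudogene Mup-ps19, while the annotated Mup20 gene lies elsewhere, so its reads are not attributed to Mup20. No row had the symbol Mup4. A row with the identifier that the annotation names Mup4 (chr4:59969676-59973582) had 7 reads in iWAT in all and 0 in BAT.

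Of the 17 other rows whose symbol begins with Mup, Mup10 and Mup11 held the most reads outside the Mup2 locus, with 3100 and 2550 in the 6 iWAT samples against 2 and 3 in BAT. Mup9 held 156 and Mup13/Mup17 held 83 in iWAT, and 0 in BAT. Of the Mup10 stretches of 50 bases 19.5% were unique, against 0% for Mup2.

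**Figure D3:**
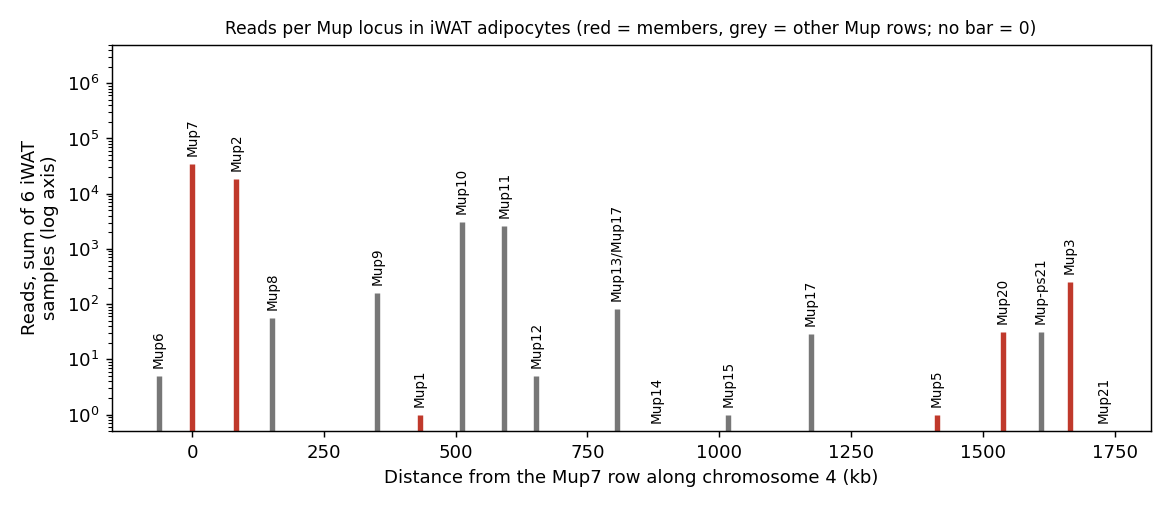
Reads summed over the 6 iWAT samples (log axis) at each of 18 non-overlapping Mup loci, by distance in kb from the Mup7 row along chromosome 4, members in red and other Mup rows in grey. Mup7 (35098 reads) and Mup2 (18262) exceed the next loci, Mup10 (3100) and Mup11 (2550), and Mup14 and Mup21 have no reads.

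Summed over the members with a chromosome 4 row, the level in iWAT was 771, 406, 155, 221, 63.9 and 223 RPKM in mice 7, 11, 12, 13, 14 and 15. The sums here and in the next paragraph include the row named Mup20, although its reads are not attributed to that gene. It added at most 0.528 RPKM in iWAT, at most 0.192 in eWAT and 0 in BAT. The sum was 0.931, 1.45, 0.0732, 0.222, 0.223 and 0.296 in the BAT of mice 6, 7, 8, 11, 12 and 13, and 0.760 to 1.60 in eWAT. The iWAT mean (306 ± 254) was 576 times that of BAT (0.532 ± 0.539) and 268 times that of eWAT (1.14 ± 0.302; SD, n = 6 each). The eWAT sum rests on transcript rows and the iWAT sum on merged rows, so the ratio to eWAT sets unlike rows side by side. On rows common to all depots iWAT was 534 times eWAT for Mup7 and 502 times at the Mup2 locus. Without the BAT sample of mouse 7 the ratio to BAT was 878, and with the chromosome 11 row of Mup3 added to the sum, an alternative chosen after seeing the data, it was 297. In the fit of iWAT against BAT, 4 of the 8 member rows had enough reads to be fitted, the 4 described above, and gave log2 differences of 9.28 for Mup7, 8.63 for Mup2, 4.50 for Mup3 on chromosome 4 and -1.78 for its chromosome 11 row. All 4 passed an adjusted p of 0.05, as did 67.6% of the 19733 rows fitted, and nothing is read from these because the contrast chose the genes.

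eWAT was also compared with BAT. The genes were chosen for an excess in iWAT over these depots, so their low values entered the choice and the test is not fully independent of it. The mean log2 of the summed RPKM plus 0.1 was 0.28 in eWAT and -1.08 in BAT, a difference of 1.35 (exact two-sided permutation test, p = 0.0346, n = 6 and 6, smallest possible p 0.00216). This call did not hold when the same rows were counted in both depots: the sum over the Mup7 row and the row at the Mup2 locus gave a difference of 0.76 (exact permutation p = 0.216, n = 6 and 6). The 4 mice with both depots gave a paired difference of 1.57 (exact p = 0.25), but 4 pairs cannot give a p under 0.125, so this says nothing about the call. The eWAT value for Mup2 came from a transcript of 302 bp, and the kind of row differs with the depot, so counting cannot be told apart from depot. Row by row, Mup7 differed by 0.25 (SE 0.80, adjusted p = 0.789, edgeR; 1.22 and adjusted p = 0.132 with the mouse as a block, 0.95 and adjusted p = 0.148 with limma on log2(RPKM + 0.1)) and the Mup2 locus by -0.32 (SE 0.81, adjusted p = 0.732). Leaving out any 1 of 8 samples (eWAT of mice 7, 11, 13 and 14, BAT of mice 8, 11, 12 and 13) also ended the call for the sum, with p between 0.0563 and 0.0693.

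Mouse by mouse, the depots did not rank alike. Mouse 7 had the highest Mup7 count in iWAT (13504), the highest in BAT (34) and shared the highest count in eWAT (18, with mouse 13). As RPKM its eWAT value (0.514) lay below those of mouse 13 (0.577) and mouse 14 (0.546). Mouse 11 was second in iWAT (7870) and had 3 reads in BAT, and mouse 14, the lowest in iWAT (1518), had 15 in eWAT. Mice 6 and 8 had no iWAT sample here.

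The genes flanking the cluster were not in excess in iWAT to a like degree. On the side before the cluster Slc46a2 had 0 reads in both depots, Snx30 averaged 2.29 RPKM in iWAT against 1.18 in BAT (log2 fold change 0.69, adjusted p = 5.58e-04, edgeR) and Hsdl2 24.7 against 33.7 (-0.73, adjusted p = 1.45e-04). On the other side Fkbp15 averaged 2.96 against 1.58 (0.64, adjusted p = 2.00e-06), while Zfp37 averaged 0.173 against 0.135 (adjusted p = 0.805) and Slc31a2 4.40 against 3.39 (adjusted p = 0.307, or 0.00927 with limma on log2(RPKM + 0.1)). The range of these genes was between -0.73 and 0.69 on the log2 scale.

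Growth hormone acts on liver cells through its receptor Ghr, the kinase Jak2 and Stat5, which induce target genes and the Socs and Cish feedback inhibitors. Of 16 genes of this pathway, 11 were higher in iWAT than in BAT, 0 lower and 5 did not pass, with a median log2 fold change of 1.88 over the list and 0.01 over all rows (34.0% of all rows were higher). Ghr, the receptor, ran from 90.5 to 147 RPKM in iWAT (median 127) and from 10.5 to 16.4 in BAT (median 14.3), without overlap (log2 fold change 2.88, SE 0.16, adjusted p = 2.27e-09). Socs3, a feedback inhibitor of cytokine receptors, ran from 126 to 352 in iWAT and from 0.341 to 0.951 in BAT (8.45, SE 0.38, adjusted p = 2.68e-10), and Socs1 rose by 5.67 (SE 0.42, adjusted p = 3.16e-08). Socs1, Prlr and Cux2 had only 48, 54 and 53 reads in BAT and passed the minimum of 10 reads in 6 samples through iWAT. Their calls thus partly followed from the filter. Igf1, the growth factor that growth hormone induces, averaged 26.2 ± 5.16 in iWAT and 1.35 ± 0.535 in BAT (3.99, SE 0.27, adjusted p = 1.58e-08). The 2 Stat5 genes did not pass: Stat5a differed by 0.23 (adjusted p = 0.297, edgeR) and Stat5b by 0.20 (adjusted p = 0.0769). Nor did the inhibitor Socs2 (0.31, adjusted p = 0.3125), Igfbp3 (0.74, adjusted p = 0.0925) or Bcl6 (-0.42, adjusted p = 0.322). On transcript rows in eWAT Ghr averaged 331 ± 78.8 RPKM, Igf1 67.5 ± 11.4 and Socs3 120.5 ± 28.7. The list's sum ran from 360.5 to 601.7 RPKM in iWAT, 496.1 to 809.6 in eWAT and 44.5 to 59.2 in BAT. The eWAT values differ from the others in kind of row. A level above BAT was thus seen in both white depots and was not particular to iWAT.

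Of 3 nuclear receptors examined, 1 was higher in iWAT, near the 34.0% of all rows. Nr3c1, the glucocorticoid receptor, ran from 19.7 to 33.6 RPKM in iWAT and from 9.89 to 13.8 in BAT (log2 fold change 0.99, SE 0.14, adjusted p = 2.55e-05, edgeR). The thyroid hormone receptors Thra (0.18, adjusted p = 0.088) and Thrb (0.01, adjusted p = 0.914) did not pass, although both passed with limma on log2(RPKM + 0.1), with 0.45 (adjusted p = 0.00203) for Thra and 0.27 (adjusted p = 0.0377) for Thrb. Without the iWAT sample of mouse 12 Thra also passed (0.24, adjusted p = 0.0365, edgeR). In eWAT Nr3c1 averaged 34.2 ± 8.60 RPKM on a transcript row, against 27.4 ± 4.67 in iWAT on the merged row, so the kind of row differs.

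Of 10 liver-enriched transcription factors, 4 had enough reads to be fitted, of which 2 were higher and 2 lower in iWAT, beside 34.0% and 33.6% of all rows. Cebpa, a factor of adipocytes and hepatocytes, averaged 305 ± 46.1 RPKM in iWAT and 168 ± 31.9 in BAT (0.59, SE 0.13, adjusted p = 0.00123). Cebpb differed by -0.79 (SE 0.16, adjusted p = 4.84e-04) and Nr1i3, the xenobiotic receptor, by -1.43 (SE 0.10, adjusted p = 1.45e-08). Hnf4a, Foxa1, Foxa2, Foxa3 and Onecut1 had at most 2 reads over the 6 iWAT samples.

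Other lipocalins moved in either direction. Of 22 listed, 20 were in the files, and 7 could be fitted, with 3 higher and 3 lower in iWAT, near the 34.0% and 33.6% of all rows. Rbp4, the retinol carrier, averaged 158 ± 26.7 RPKM in iWAT and 19.3 ± 6.68 in BAT (2.76, SE 0.21, adjusted p = 4.12e-08), and Orm1, an acute-phase plasma protein, 142 ± 26.0 and 33.6 ± 8.95 (1.80, SE 0.19, adjusted p = 1.10e-06). Orm3 averaged 1.58 ± 0.443 and 2.68 ± 1.17 (-1.05, SE 0.30, adjusted p = 0.00710), a call lost with the mouse as a block (adjusted p = 0.112). Ptgds, prostaglandin D synthase, held 3 reads in iWAT against 661 in BAT (log2 fold change -7.53, and -7.475 with no filter on low counts). It passed the read minimum only through BAT. Its place among the 3 lower thus followed from the filter, and nothing is read from its call.

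**Figure D4:**
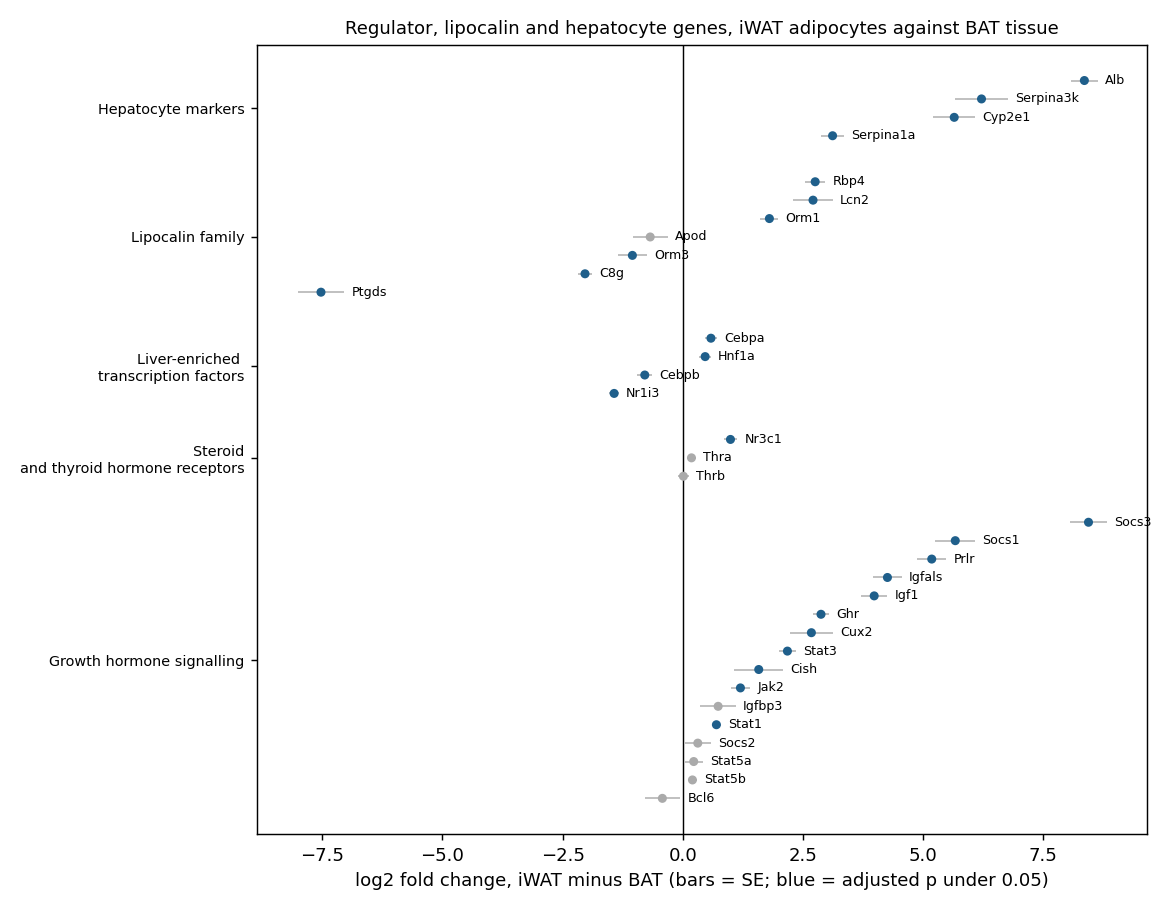
log2 fold change (iWAT minus BAT, bars for the standard error, n = 6 and 6) of the fitted genes of 5 lists, blue where the adjusted p was under 0.05 and grey otherwise. Socs3 (8.45), Alb (8.36) and Serpina3k (6.22) lie farthest to the right and Ptgds (-7.53) farthest to the left.

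Markers of cells that make Mups elsewhere were checked beside these results. Of 19 hepatocyte markers, 15 had too few reads to be fitted, and the 4 fitted were higher in iWAT, as were 34.0% of all rows. Of these, Alb (11 reads in BAT), Serpina3k (4) and Serpina1a (30) passed the minimum of 10 reads in 6 samples only through iWAT. Their direction thus followed from the filter, and nothing is read from the count. Alb, albumin, lay at a mean of 10.2 ± 1.26 RPKM in iWAT and between 0 and 0.0674 in BAT, with far less spread between iWAT mice than Mup7. Cyp2e1 held most of the list's summed level (400 to 588 RPKM in iWAT, 196 to 970 in eWAT on transcript rows, 4.87 to 19.2 in BAT). Of the same list, Serpina3k held 360 reads in iWAT against 4 in BAT (log2 fold change 6.22), Serpina1a 275 against 30 (3.12), Hpx 73 against 13 and Serpina1c 68 against 6. Ttr, Fgb, Cyp3a11, Tat and Cps1 had 0 reads in iWAT and Apoa1 had 7, Ahsg 6 and Fga 6. The list's sum was highest in mouse 14 (588), where the Mup sum was lowest (63.9), and lowest in mouse 7 (400), where the Mup sum was highest (771). The order was not reversed throughout: mouse 11, second for the Mup sum (406), had a list sum of 565, and mouse 13 (Mup sum 221) had 407. A relation between the sums was not tested. Of 12 markers of gland and skin epithelium in the files, 8 had 0 reads in iWAT, Krt5, Krt14 and Epcam among them, and Amy1 (167 ± 15.2 RPKM) made up most of the sum.

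The summed macrophage markers in iWAT were 122 RPKM in mouse 7 and 69.7 in mouse 11, the 2 highest for Mup7, and 29.3, 30.3, 35.9 and 22.4 in mice 12, 13, 14 and 15. The range was 128 to 1865 in eWAT and 20.1 to 48.0 in BAT, on transcript rows in eWAT and merged rows in BAT. The 4 endothelial markers summed to 132 RPKM in mouse 14, the lowest for Mup7, and to 22.8 to 67.3 in the other 5 iWAT samples. Of 5 macrophage markers in the files 2 were higher in iWAT, near the 34.0% of all rows, namely Emr1 (1.24, adjusted p = 0.0331, edgeR) and Cd68 (1.67, adjusted p = 0.00760, edgeR). The part of these cells in the spread between mice was not tested.

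Genes most like the summed Mup level were sought among 14147 symbols with a mean of at least 1 RPKM in a depot, by the correlation of depot-centred log2(RPKM + 0.1) over the 18 samples, which share libraries and depth. The nearest was LOC100048884 (r = 0.97), which overlaps the Mup7 row and shares its reads. The next were Rdh10, a retinol dehydrogenase (0.86), Lrig1, a growth-factor receptor inhibitor (0.84), Vgll4, a transcription cofactor (0.81), and Elmod2 (0.81). In iWAT their levels ran over much narrower ranges than Mup7, from 2.62 to 3.49 RPKM for Rdh10 and 6.41 to 14.1 for Lrig1.

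The region before each Mup gene was searched for letters read by the regulators above, in windows of 150 bases ending 15 bases after the TATAA element. The Stat motif TTCNNNGAA, on either strand, was in 0 of 21 Mup windows and in 4.1% of 32475 RefSeq promoter windows of the same length (GRCm38.p6). The RefSeq windows are from another build and were not placed by a TATAA element. The steroid receptor motif AGAACA was in 3 of 21, those of Mup1, Mup12 and Mup20, and in 9.57% of all windows. The window of Mup7, as of Mup2 and Mup3, held neither. The 21 Mup windows are related copies and not separate draws, so nothing about regulation is read from these counts.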

How the data were processed

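RNA was sequenced from 18 samples, 6 per depot. The files deposited by the authors give, row by row, a raw read count and an RPKM. The RPKM deposited by the authors was found to be that count over the row's length and the sample's total. The submitters' processing notes name cutadapt 1.16 and HISAT2 2.1.0 and the build mm9, and the paper names the Genomatix Genome Analyzer. iWAT and BAT files hold 53445 merged gene rows and eWAT files 189660 transcript rows, of which 27301 rows match in position, length and symbol. Genes were taken by symbol. For iWAT and BAT the merged row was taken, and for sums in eWAT the transcript whose mean RPKM was highest. The members and all gene lists were chosen with earlier results of these data known.

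Depots were compared with edgeR 4.0.16 (quasi-likelihood test, TMM, a minimum of 10 reads in 6 or more samples, Benjamini-Hochberg adjusted p under 0.05 over all rows) in R 4.3.3. iWAT and BAT were fitted on merged rows (12 samples) and eWAT and BAT on shared rows (18 samples). SEs came from the F statistic. The code was tested on simulated data. Sums were compared by an exact permutation test with a pseudocount of 0.1 (scipy 1.17.1). Alternatives were DESeq2 1.42.0, other size factors, no filter, limma 3.58.1, the mouse as a block and each sample left out. Samples of 1 mouse were paired by the number in the titles, and deviations of paired samples correlated between -0.11 and 0.12. Nothing but the titles says that replicates are separate animals. Named genes were all members, other Mup rows with up to 4 named, the 3 nearest genes on each side, the 3 highest in iWAT and 2 most changed of each list, and the 5 most like the Mup sum. Stat5a, Stat5b, Socs2, Igfbp3, Bcl6, Prlr, Cux2 and Lcn2 were chosen after their values were seen. So were the liver factors with few reads and the marker genes named. Sequences are from the mm9 genome and its GENCODE vM1 models. 1 listed gene is not reported here.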

Additional observations from a re-analysis of the deposited data

Results flagged for a closer look

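In 18 groups of 6 samples, each a Mup row or the sum in 1 depot, the sample farthest from the others was compared with the spread of its group, and 2 stood apart, where chance gives about 0.9. For Mup7 in eWAT (the 624 bp transcript with the highest mean), mouse 8 was lowest at 0.188 RPKM, with the next sample at 0.489. The value of mouse 8 rests on 4 reads. On the 1033 bp row the gap was smaller, with mouse 8 at 0.171, the next sample at 0.295 and the highest at 0.577. For Mup3 on chromosome 4 in BAT, mouse 13 was highest at 0.209 RPKM, with the next sample at 0.0665, which is 6 reads against 2. The high iWAT values of mouse 7 did not stand apart by this measure.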

How the results depend on the processing

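The sum of eWAT against BAT was the result most dependent on processing. The log2 difference of 1.35 lost its call without length scaling (RPM, 0.49, p = 0.351, exact permutation), with the chromosome 11 row of Mup3 (0.44, p = 0.193, exact) and with the shared rows alone (0.76, p = 0.216, exact). With the mouse as a replicate block it was 1.57 (exact p = 0.25, where 4 pairs allow no p under 0.125). The chromosome 11 and shared-row alternatives were chosen after seeing the data. Leaving out 1 sample gave 1.06 to 1.69 (exact p 0.013 to 0.0693). The count of rows called in eWAT against BAT rose from 3888 to 6021 with no filter on low counts. The mean share of Mup7 in member reads was 65.2%, or 73.4% of RPKM, since the Mup2 row is longer. The Mup2 locus row in eWAT against BAT (-0.32) changed sign to 0.45 with the block, 0.21 with limma on log2(RPKM + 0.1) and 0.014 with log2(RPKM + 1). In iWAT against BAT, Zfp37 changed sign to -0.14 with the block and ranged from -0.055 to 0.31 with 1 sample left out, Slc31a2 changed sign to -0.016 with the block, and Thrb ranged from -0.063 to 0.093 with 1 sample left out. Of the edgeR calls on named genes the block changed only that of Orm3. With limma Thra, Thrb and Slc31a2 passed. Few reads outside iWAT limit every comparison there.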
